A study of Ovis aries with 42 samples.

Results

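ENSOARG00000003687, ENSOARG00000017537, ENSOARG00000000741 and ENSOARG00000013956 are 4 of the 27054 Ensembl sheep gene IDs counted in hypothalamus (HT) and pars tuberalis (PT) of ewes. All animals were adult females of the Rasa Aragonesa, a meat breed of Spain. The 4 features were selected from their counts in 14 HT libraries: follicular libraries 8 to 14 lay apart from anestrous libraries 16 to 21, while anestrous library 15 lay with the follicular ones. The follicular and anestrous HT values of these features are therefore a description, and no test is given for them. RNA from each tissue was sequenced in the luteal phase (HT libraries 1 to 7, PT libraries 22 to 28), the follicular phase (HT 8 to 14, PT 29 to 35) and anestrus (HT 15 to 21, PT 36 to 42), with 7 libraries in each of the 6 groups and 42 in all. The labels give no treatment, no age beyond adult, no way in which the phase was determined and no tie between a library and a ewe, so p-values here speak only of the spread among the sequenced samples, which may in part be technical.

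The hypothalamus holds the neurons that release gonadotropin-releasing hormone, which drives the pituitary and through it the ovary. In the luteal phase progesterone from the corpus luteum restrains that release, in the follicular phase rising estradiol precedes the surge that triggers ovulation, and in anestrus the long days of spring and summer hold the axis down. The pars tuberalis, a thin sheet of pituitary tissue around the stalk, reads the nightly melatonin signal and acts back on the hypothalamus through thyrotropin. What the 4 features encode is not known here, since 0 of the 27054 IDs could be matched to the RefSeq gene table used here. Their roles, positions and sequences are for that reason not given, the tissue labels could not be set against cell type markers, and levels are compared between libraries but not between features, whose lengths are not known. Levels are in CPM, counts scaled to a common library size with TMM factors over all 42 libraries. In pieces of whole tissue, fewer cells of a type and less RNA per cell cannot be told apart.

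Library totals ran from 14649356 to 37726207 counts. Library 15 held 33586399 counts, its 10 largest features took 14.8% of them (the lowest share of all 42 libraries, against 24.9% to 40.8% in anestrous HT libraries 16 to 21) and its TMM factor of 1.45 was the highest of all. It was also the HT library most often at an extreme. Of 16349 features, it held the highest or the lowest of the 21 HT values in 30.8%, against 1.18% to 22.1% for the other 20 HT libraries. The part that this makeup plays in the values of library 15 was not tested.

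Both features that were high in the follicular hypothalamus were high in library 15 as well. ENSOARG00000003687 was the scarcest in reads, with 17 counts in PT library 36 and 446 in HT library 15 as the ends of its range. Its follicular HT level had a lowest value of 5.28, a median of 7.33 and a highest value of 10.3 CPM (7.32 ± 1.59, mean ± SD, n = 7). In anestrous libraries 16 to 21 the corresponding values were 1.77, 2.46 and 2.74 CPM (2.36 ± 0.405, n = 6). The ranges left a gap from 2.74 CPM in anestrous library 20 to 5.28 CPM in follicular library 13. Library 15, at 9.14 CPM, was the second highest of the 21 HT libraries after follicular library 12, and 3.88-fold above the mean of the other anestrous libraries.

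ENSOARG00000017537 had at least 876 counts in every library. Its follicular HT values had a lowest of 92.3, a median of 112 and a highest of 124 CPM (109 ± 11.2, n = 7), and anestrous libraries 16 to 21 gave 54.4, 64.9 and 75.2 CPM (64.1 ± 8.56, n = 6). The nearest libraries of the 2 groups were anestrous library 18 at 75.2 CPM and follicular library 14 at 92.3 CPM. Library 15 held 165 CPM, the highest of all 42 libraries, 1.52-fold above the follicular mean and 2.57-fold above the mean of libraries 16 to 21.

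The other pair was low in the follicular hypothalamus and lower still in library 15. ENSOARG00000000741 had follicular HT values of 20.4, 27.7 and 31.9 CPM at the lowest, the median and the highest (27.3 ± 3.70, n = 7), against 40.4, 49.9 and 68.9 CPM in anestrous libraries 16 to 21 (52.3 ± 10.7, n = 6). The gap ran from 31.9 CPM in follicular library 13 to 40.4 CPM in anestrous library 20. With 13.7 CPM, library 15 was the lowest of all 42 libraries, and the mean of the other anestrous libraries was 3.81-fold above it.

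ENSOARG00000013956 did not keep to the rule by which it was listed. Its follicular HT values were 28.2, 36.7 and 46.3 CPM at the lowest, the median and the highest (36.5 ± 6.86, n = 7), and anestrous library 18, at 36.5 CPM, lay inside that range. The other anestrous libraries reached up to 156 CPM, with a median of 104 CPM over libraries 16 to 21 and a mean of 101 ± 42.5 CPM (n = 6). The coefficient of variation in those 6 libraries was 41.8%, against 17.2%, 13.4% and 20.4% for ENSOARG00000003687, ENSOARG00000017537 and ENSOARG00000000741. Library 15 was the lowest of the 21 HT libraries at 22.6 CPM. In the PT, only follicular library 33 lay below it, at 19.9 CPM. This last place depended on the scaling: over plain library totals library 15 stood at 32.8 CPM, inside the follicular range of 26.2 to 47.6 CPM, with library 18 under it at 27.96 CPM. ENSOARG00000000741 stayed lowest in library 15 on that scale (19.9 CPM, follicular range 21.8 to 32.4 CPM), and ENSOARG00000003687 and ENSOARG00000017537 were then highest there, at 13.3 and 239 CPM.

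**Figure D1:**
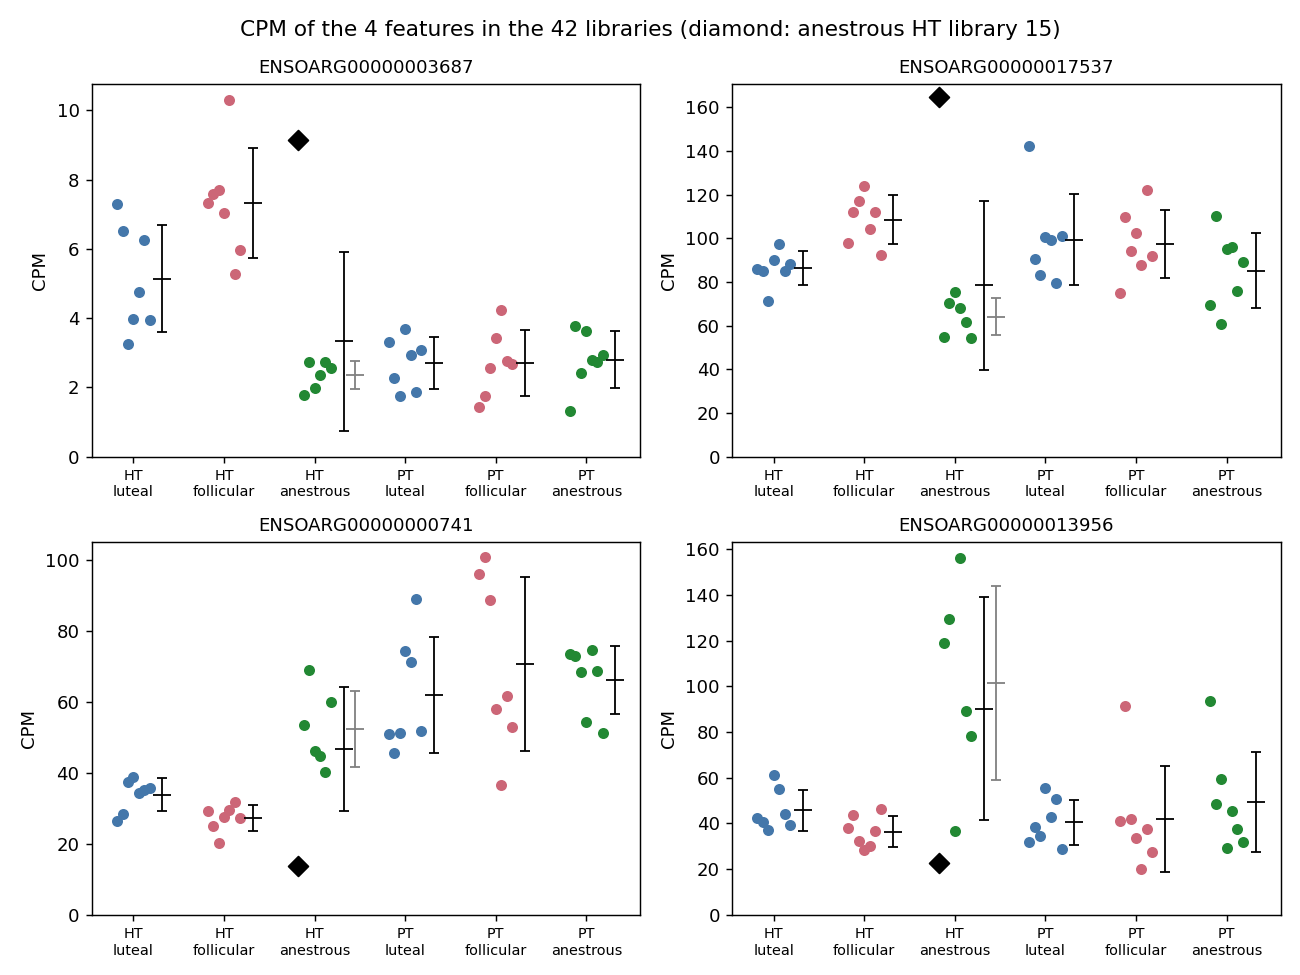
CPM (vertical axes, from 0) of the 4 features in each of the 42 libraries, by tissue and phase (horizontal axes). Points are libraries, black bars are the mean ± SD of all 7 libraries of a group, grey bars the mean ± SD of anestrous HT libraries 16 to 21, and the diamond is HT library 15, which lies at 9.14, 165, 13.7 and 22.6 CPM.

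The pattern is shared by many features. The follicular HT libraries did not overlap anestrous libraries 16 to 21 in 517 of 16349 features (3.16%), in 270 of them (1.65%) with follicular above anestrous and in 247 (1.51%) below, and 3 of the 4 listed features were among them. In 497 of these 517 features library 15 lay beyond libraries 16 to 21 on the follicular side, and in 452 (87.4%) it lay past the follicular mean. All of the listed features did so as well. Library 15 lay beyond every follicular library in 126 of the 270 features and in 205 of the 247. ENSOARG00000017537 was among the former and ENSOARG00000000741 among the latter, while ENSOARG00000003687 stayed inside the follicular range. The balance of directions depended on the scaling. With RLE size factors in place of TMM, 239 features had follicular above anestrous and 275 below. With CPM over plain library totals, 1133 features had follicular above anestrous and 13 below. When library 15 was left out, edgeR's quasi-likelihood test called 890 of 16419 features (5.42%) between follicular and anestrous HT, 2.48% higher and 2.94% lower in the former, and by p the listed features ranked 1, 2, 3 and 5 among them. The follicular and anestrous values in that contrast chose them, so nothing is read from their place in it. The luteal HT libraries were in that fit as well and entered its estimate of the spread. With library 15 kept, the same test over all 21 HT libraries found no feature below the threshold (0 of 16350). The 890 features were thus obtained with library 15 left out and not with it kept. Leaving out another HT library in its place was not tried.

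**Figure D2:**
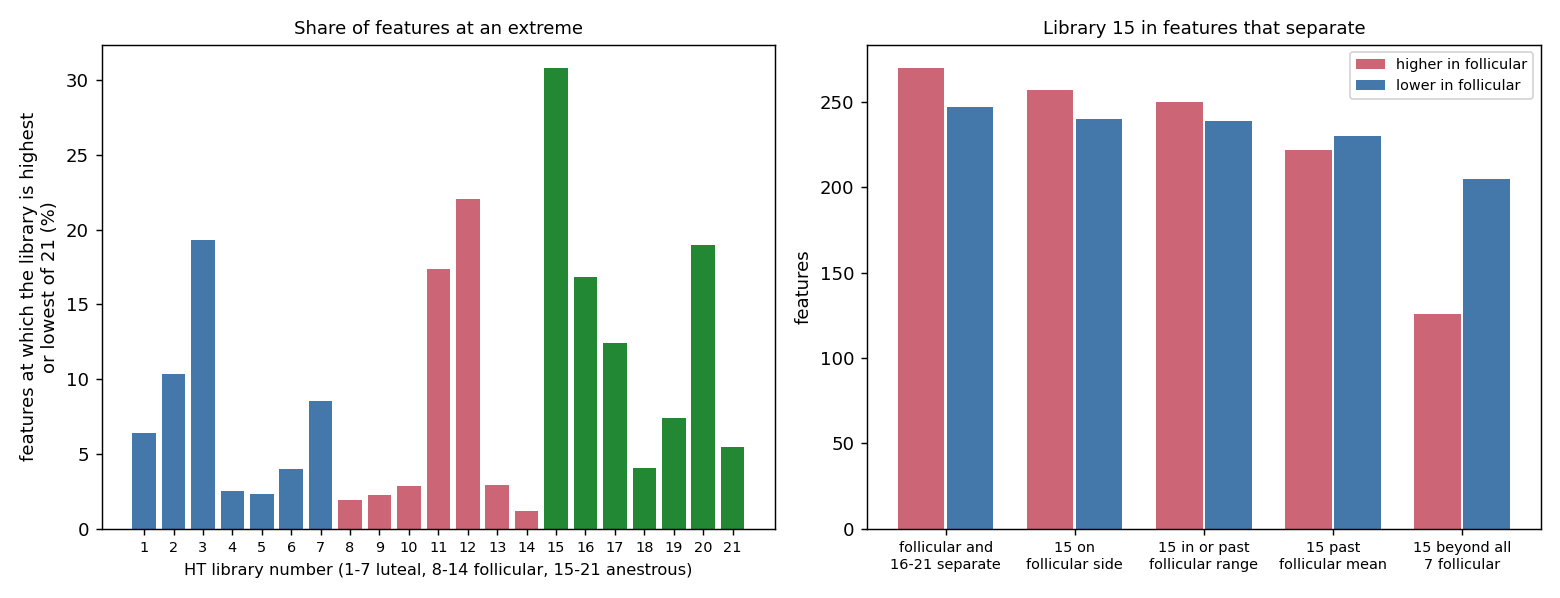
Left, the share of 16349 features (vertical axis, %) in which each of the 21 HT libraries (horizontal axis) held the highest or lowest CPM, coloured by phase (luteal blue, follicular red, anestrous green), with library 15 at 30.8%. Right, the number of features whose follicular HT libraries did not overlap anestrous libraries 16 to 21, and the number of these in which library 15 met each further condition, by direction.

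The luteal hypothalamus lay between the other phases for all 4 features. For ENSOARG00000003687 the luteal values were 3.26, 4.76 and 7.29 CPM at the lowest, the median and the highest (5.14 ± 1.54, n = 7). Luteal libraries 1, 2 and 6 lay inside the follicular range, the other 4 lay in the gap between the ranges, and none reached the range of anestrous libraries 16 to 21. ENSOARG00000000741, at 26.4, 35.3 and 38.7 CPM (33.8 ± 4.64, n = 7), had luteal libraries 1 and 2 inside the follicular range and the other 5 in the gap. ENSOARG00000017537, at 71.4, 86.0 and 97.3 CPM (86.2 ± 7.81, n = 7), had luteal library 5 in the follicular range, library 3 in the anestrous range and 5 libraries in the gap. The luteal values of ENSOARG00000013956 were 37.3, 42.3 and 61.2 CPM (45.7 ± 8.96, n = 7). All 7 lay inside the wide range of anestrous libraries 16 to 21, and 5 of them lay inside the follicular range too.

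On a log2 scale on which 0 is the mean of anestrous libraries 16 to 21 and 1 the follicular mean, the luteal mean stood at 0.669 for ENSOARG00000003687, 0.567 for ENSOARG00000017537, 0.668 for ENSOARG00000000741 and 0.761 for ENSOARG00000013956. The median over the 890 features called without library 15 was 0.636, with quartiles of 0.524 and 0.750. The means that scale these positions are those that chose the features, and ENSOARG00000013956 lay above the upper quartile while the other 3 lay between the quartiles. Single luteal libraries differed more. Averaged over the 4 features, library 1 stood at 0.862 and library 2 at 0.814, close to the lowest follicular library (number 14, at 0.814), whereas libraries 3 and 4 stood at 0.492 and 0.504. In library 3 the features did not move as a unit, as it stood at 0.218 for ENSOARG00000017537 and at 0.960 for ENSOARG00000013956. The 10 largest features took 43.0% of the counts of library 3, the highest share of all 42 libraries, and its TMM factor of 0.663 was the lowest. The part that this makeup plays in its positions was not tested. Library 15 stood at 1.21, 1.79, 2.05 and 1.49 for the 4 features in the order of their listing. Anestrous library 18 stood at 0.982 for ENSOARG00000013956 and at 0.330 on average over the 4.

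**Figure D3:**
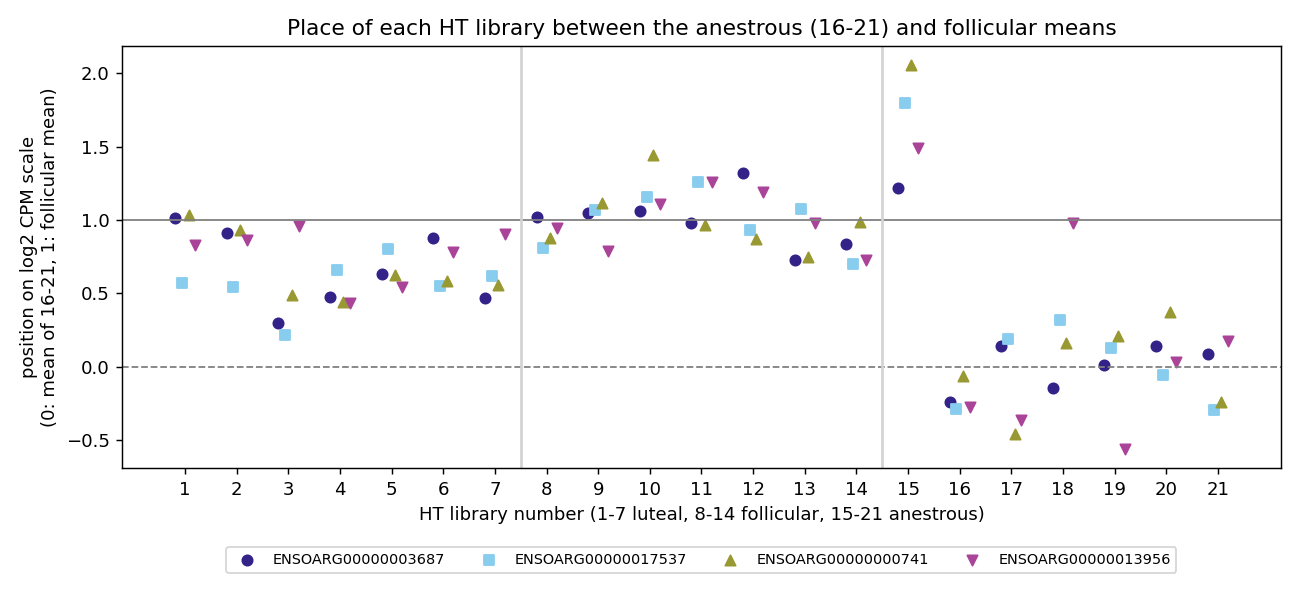
Position of each HT library (horizontal axis, by number) for the 4 features on the log2 CPM scale (vertical axis), with 0 at the mean of anestrous libraries 16 to 21 and 1 at the follicular mean. Luteal libraries lie mostly between 0 and 1, and library 15 lies above 1 for each feature, from 1.21 to 2.05.

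Leaving out library 15 moved all 4 HT differences between follicular and anestrous away from 0, as its place on the follicular side made certain. That contrast chose the features, so its intervals are a description and do not serve as a test. With all 21 libraries the follicular minus anestrous log2 fold change of ENSOARG00000003687 was 1.11 (95% interval 0.46 to 1.76), and without library 15 it was 1.65 (1.20 to 2.09). For ENSOARG00000017537 it went from 0.46 (0.06 to 0.86) to 0.78 (0.55 to 0.996). ENSOARG00000000741 shifted less, from -0.79 (-1.25 to -0.33) to -0.93 (-1.20 to -0.65), and ENSOARG00000013956 went from -1.32 (-1.94 to -0.70) to -1.47 (-1.95 to -0.98). Without library 15 the luteal minus anestrous log2 fold changes were 1.12 (0.68 to 1.56), 0.42 (0.20 to 0.64), -0.64 (-0.91 to -0.36) and -1.16 (-1.64 to -0.68) in the same order. These share the anestrous libraries with the contrast that chose the features and are given side by side with it, without a test. The luteal minus follicular values with all 21 libraries were the smallest for 3 of the features, at -0.51 (-1.15 to 0.13), 0.30 (-0.15 to 0.76) and 0.32 (-0.29 to 0.93) for ENSOARG00000003687, ENSOARG00000000741 and ENSOARG00000013956. With the same 21 libraries their luteal minus anestrous values were 0.595 (-0.05 to 1.24), -0.48 (-0.94 to -0.03) and -0.996 (-1.61 to -0.38). For ENSOARG00000017537 the luteal minus follicular value was -0.34 (-0.74 to 0.06), beside a luteal minus anestrous value of 0.12 (-0.28 to 0.52) with library 15 kept. Library 15 is in neither the luteal nor the follicular group. Without it the luteal minus follicular values of ENSOARG00000003687 and ENSOARG00000017537 were -0.53 (-0.93 to -0.12) and -0.35 (-0.56 to -0.14). Those of ENSOARG00000000741 and ENSOARG00000013956 were 0.29 (0.02 to 0.56) and 0.31 (-0.15 to 0.77). They share the follicular libraries with the contrast that chose the features and carry no test.

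The PT libraries, which played no part in the choice, gave the question of whether the same features differ between phases in the other tissue. Whether they come from the same ewes as the HT libraries is not known. No phase difference of the 4 features was detected there. ENSOARG00000003687 had values of 1.74, 2.92 and 3.69 CPM at the lowest, the median and the highest in the luteal PT (2.69 ± 0.748, n = 7), 1.43, 2.68 and 4.24 CPM in the follicular PT (2.69 ± 0.951) and 1.31, 2.79 and 3.77 CPM in the anestrous PT (2.80 ± 0.818). The 3 ranges covered each other almost entirely. The follicular minus anestrous log2 fold change in the PT was -0.07 (95% interval -0.58 to 0.45, edgeR adjusted p = 0.974).

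ENSOARG00000017537 had PT values of 79.7, 99.3 and 142 CPM in the luteal phase (99.4 ± 20.7, n = 7), 74.8, 94.0 and 122 CPM in the follicular phase (97.5 ± 15.5) and 60.7, 89.1 and 110.4 CPM in anestrus (85.3 ± 17.3). The highest luteal value was that of library 22, which stood apart from the other 6. The follicular minus anestrous log2 fold change was 0.19 (-0.10 to 0.48, edgeR adjusted p = 0.802).

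ENSOARG00000000741 had PT values of 45.5, 51.7 and 88.9 CPM in the luteal phase (62.0 ± 16.3, n = 7), 36.5, 61.6 and 100.8 CPM in the follicular phase (70.7 ± 24.5) and 51.2, 68.7 and 74.5 CPM in anestrus (66.2 ± 9.51). The follicular PT libraries spread most, with libraries 29, 30 and 31 above every anestrous one and library 33 below them all. The follicular minus anestrous log2 fold change was 0.09 (-0.31 to 0.49, edgeR adjusted p = 0.946). Without library 29 or library 30 its sign turned.

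ENSOARG00000013956 had PT values of 28.8, 38.3 and 55.7 CPM in the luteal phase (40.4 ± 9.89, n = 7), 19.9, 37.5 and 91.3 CPM in the follicular phase (41.9 ± 23.2) and 29.4, 45.4 and 93.5 CPM in anestrus (49.4 ± 22.05). Follicular library 30 and anestrous library 36 held the high values, each well above the rest of its group. The follicular minus anestrous log2 fold change was -0.24 (-0.82 to 0.34, edgeR adjusted p = 0.871). When the model also held, for each library, the share of counts in its 10 largest features, it was 0.0544.

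The other PT comparisons share libraries with the first and gave no call either. For luteal minus anestrous the log2 fold changes were -0.07, 0.22, -0.10 and -0.29 (edgeR adjusted p = 0.999 for each feature), and for luteal minus follicular they were -0.00245, 0.02, -0.19 and -0.05 (edgeR adjusted p = 0.999, 0.978, 0.807 and 0.974). Over all features edgeR called 0 of 16301 (0%) in each of the PT comparisons, with 1055, 526 and 1380 at an unadjusted p under 0.05 for follicular against anestrous, luteal against anestrous and luteal against follicular. DESeq2 called 6, 4 and 14 and limma-voom with sample weights called 1, 0 and 0, none of them a listed feature. In all 12 comparisons of a listed feature between PT phases the ranges overlapped. Over all 17296 features the 7 and 7 libraries were apart in 0.11%, 0.0231% and 0.0983% in the order given. An exact permutation test of the difference of mean log2 CPM gave p = 0.174 at the lowest, for ENSOARG00000017537 between luteal and anestrous PT (n = 7 each), unadjusted. Whether the phase difference of a feature differs between the tissues was not tested, since its HT part was what chose it.

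**Figure D4:**
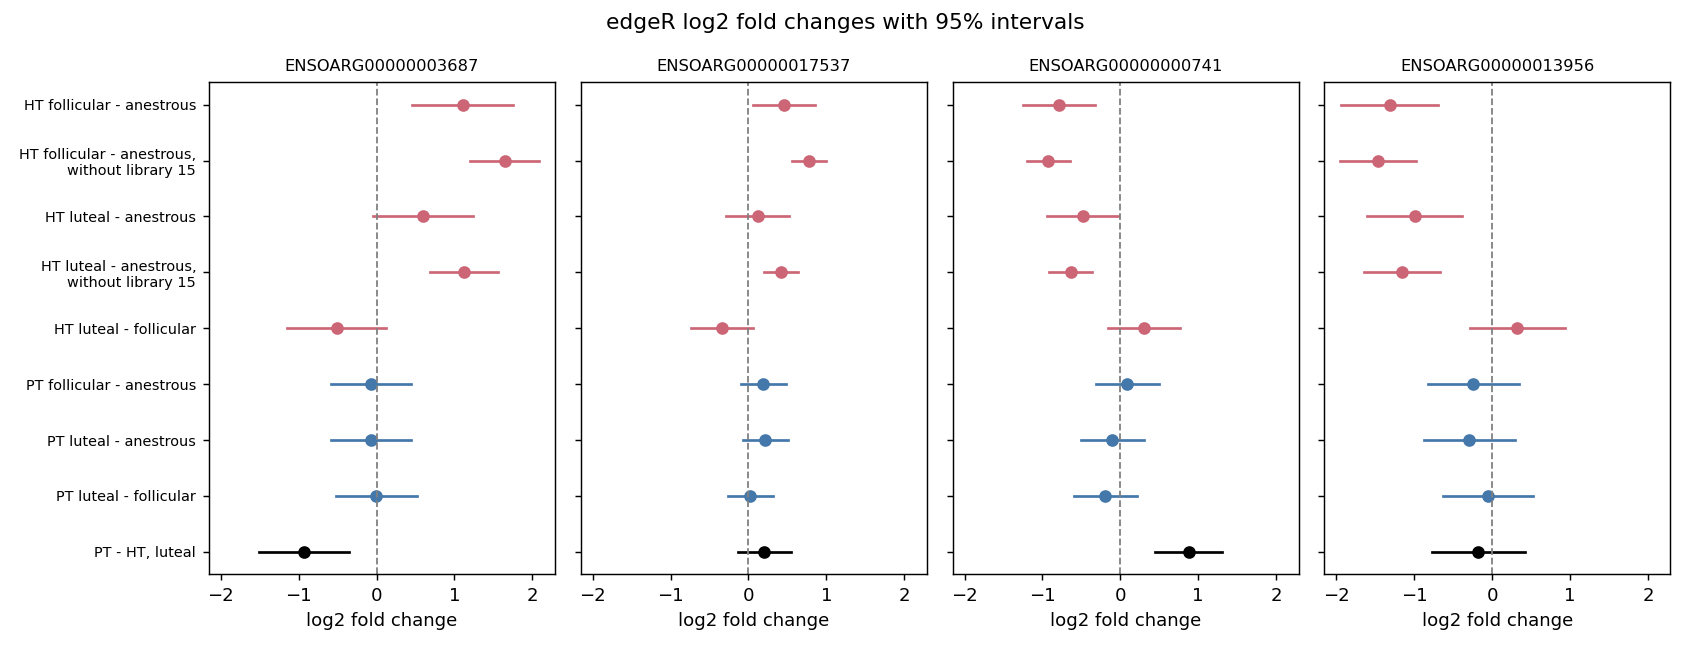
Log2 fold changes of the 4 features (horizontal axes) fitted with edgeR, with 95% intervals, for HT phase comparisons with and without library 15 (red), PT phase comparisons (blue) and the luteal comparison of PT with HT (black). The HT follicular minus anestrous values run from -1.47 to 1.65 without library 15, and every PT phase interval includes 0.

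The luteal libraries of both tissues, whose levels the choice did not use, allow a test of the tissue difference. The luteal HT libraries did enter the spread of the HT fit without library 15, in which the features ranked near the top. The part that this plays in the p-values was not tested. The test treats HT and PT libraries as independent, though the labels do not say whether both came from the same ewes. ENSOARG00000003687 was lower in the luteal PT than in the luteal HT, with a log2 fold change of -0.93 ± 0.287 (SE; 95% interval -1.51 to -0.35, edgeR adjusted p = 0.00607), or 1.91-fold lower. Of the 7 luteal PT libraries, 5 lay below all luteal HT libraries. ENSOARG00000000741 was higher in the PT by a log2 fold change of 0.88 ± 0.214 (0.44 to 1.31, edgeR adjusted p = 0.000731), or 1.84-fold higher, and all 7 luteal PT libraries lay above all 7 luteal HT libraries. The remaining features were not called, with 0.21 (-0.14 to 0.55, edgeR adjusted p = 0.309) for ENSOARG00000017537 and -0.18 (-0.78 to 0.42, edgeR adjusted p = 0.631) for ENSOARG00000013956. A tissue difference was common: edgeR called 54.8% of 17296 features in this comparison, 25.8% higher and 29% lower in the PT, and 24.7% did not overlap (11.8% higher, 12.8% lower). The 2 of 4 called here are thus near the background. Both calls held without each of the 14 luteal libraries in turn, with adjusted p up to 0.0234 for ENSOARG00000003687 and 0.00247 for ENSOARG00000000741. The fit took its estimate of the spread from all 42 libraries, those of the choice included. With only the 2 luteal groups in the fit, edgeR adjusted p was 0.00437 for ENSOARG00000003687 and 0.000168 for ENSOARG00000000741.

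The order of the 6 group means differed between the features and depended in part on library 15. ENSOARG00000003687 was highest in the follicular HT, which exceeded the luteal HT by 2.18 CPM, more than the larger SD of the pair (1.59 CPM). Its order ran on through anestrous HT and then anestrous, follicular and luteal PT, with no other neighbours further apart than their larger SD. Without library 15 the anestrous HT mean was the lowest of the 6, and the luteal HT exceeded the next mean, that of the anestrous PT, by 2.34 CPM (larger SD 1.54 CPM). ENSOARG00000000741 was lowest in the follicular HT, 6.51 CPM under the luteal HT with a larger SD of 4.64 CPM, and its PT means all exceeded its HT means. The anestrous HT mean exceeded the luteal HT mean by 13.02 CPM with library 15, under the larger SD of 17.5 CPM, and by 18.5 CPM without it, over the larger SD of 10.7 CPM. ENSOARG00000017537 ran from follicular HT through luteal PT, follicular PT, luteal HT and anestrous PT to anestrous HT, and ENSOARG00000013956 from anestrous HT through anestrous PT, luteal HT, follicular PT and luteal PT to follicular HT. With library 15, no neighbours in either order were further apart than the larger SD. Without it, the anestrous HT and anestrous PT means were, by 21.2 CPM for ENSOARG00000017537 (lower in the HT, larger SD 17.3 CPM) and by 52.1 CPM for ENSOARG00000013956 (higher in the HT, larger SD 42.5 CPM).

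Over the 21 HT libraries the 4 features moved together in the sense of their listing, which their choice made likely. Pearson's r of log2 CPM was 0.833 between ENSOARG00000003687 and ENSOARG00000017537 and 0.772 between ENSOARG00000000741 and ENSOARG00000013956. Between the high and the low pair r ran from -0.869 to -0.743. Within the follicular group and within anestrous libraries 16 to 21, r was 0.0496 and 0.0953 for the high pair and 0.0229 and 0.229 for the low pair (n = 7 and 6). The features of opposite direction gave -0.626 to -0.244 within the follicular group and -0.278 to 0.257 within libraries 16 to 21. The points share libraries, depth and scaling, and these values carry no p.

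The levels of the 7 luteal HT libraries were not part of the choice, but their spread entered the HT fit without library 15. None of the 6 pairs there passed the test. The r farthest from 0 was that of ENSOARG00000003687 with ENSOARG00000000741, with r = -0.836 (exact permutation p = 0.00853, Benjamini-Hochberg adjusted over the 6 pairs p = 0.0512) and rho = -0.857 (exact permutation p = 0.0238, adjusted p = 0.143). Without libraries 1 and 3, the farthest from the median of ENSOARG00000003687, r was -0.744. The pair passed with RLE size factors (r = -0.884, exact permutation adjusted p = 0.0143) and turned to 0.371 with plain library totals, so this relation depended on the scaling. The next was ENSOARG00000017537 with ENSOARG00000013956, with r = 0.698 and rho = 0.714 (exact permutation adjusted p = 0.223 and 0.264), and r = 0.695 without libraries 3 and 5. This r was positive, whereas the features are listed with opposite directions. The high pair gave r = 0.298 (exact permutation adjusted p = 0.866), which fell to -0.522 without libraries 1 and 3, and the low pair gave r = 0.314 (exact permutation adjusted p = 0.866). The remaining pairs, ENSOARG00000003687 with ENSOARG00000013956 and ENSOARG00000017537 with ENSOARG00000000741, had r = -0.0666 and -0.0870 (exact permutation adjusted p = 0.873 for both).

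Over the 21 PT libraries 4 of the 6 pairs of features passed the test of Pearson's r, and 1 of these did so under every alternative run. ENSOARG00000000741 and ENSOARG00000013956 rose and fell together, with r = 0.749 (permutation p = 6.00e-05, Benjamini-Hochberg adjusted over the 6 pairs p = 0.00036) and rho = 0.758 (permutation adjusted p = 0.00096). Without libraries 33 and 23, the farthest from the median, r was 0.707. Within the luteal, follicular and anestrous PT r was 0.814, 0.862 and 0.715 (n = 7 each). Without the 2 farthest libraries of each phase it was 0.532 in the luteal (27 and 25), 0.875 in the follicular (33 and 30) and 0.274 in the anestrous PT (42 and 39). Such an r was uncommon: 0.814% of the 16348 other features had an r with ENSOARG00000000741 at least this high in the PT, and 0.477% had one with ENSOARG00000013956. Leaving out each PT library in turn gave r from 0.680 to 0.806, with an adjusted permutation p of at most 0.00372.

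ENSOARG00000003687 was related to the other features in the PT as well, but none of these calls held without library 36. Its r was 0.496 with ENSOARG00000017537 (permutation p = 0.0225, adjusted p = 0.0337; rho = 0.551, adjusted p = 0.0313), -0.498 with ENSOARG00000000741 (permutation p = 0.0217, adjusted p = 0.0337; rho = -0.371, adjusted p = 0.150) and -0.585 with ENSOARG00000013956 (permutation p = 0.00526, adjusted p = 0.0158; rho = -0.442, adjusted p = 0.0935). Without libraries 36 and 29, where ENSOARG00000003687 was lowest, these became 0.310, -0.404 and -0.503. Without anestrous library 36, r was 0.402, -0.508 and -0.450, and none of these passed (permutation adjusted p = 0.115, 0.0670 and 0.0937). The r with ENSOARG00000000741 was no smaller there than with all libraries, and its adjusted p rose with those of the other pairs. Fewer than the 4 calls were also left without library 27 or 29 (2 pairs) and without library 30, 33 or 37 (3 pairs). Between 2.20% and 7.57% of the other features had an r with either partner as far from 0 on the same side. Within phases the size of r varied. Between ENSOARG00000003687 and ENSOARG00000013956 r was 0.00661 in the luteal, -0.725 in the follicular and -0.822 in the anestrous PT (n = 7 each). Whether these differ was not tested. ENSOARG00000017537 was not detectably related to ENSOARG00000000741 (r = -0.154, rho = -0.0584, permutation adjusted p = 0.504 and 0.803) or to ENSOARG00000013956 (r = -0.232, rho = -0.151, permutation adjusted p = 0.376 and 0.616).

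**Figure D5:**
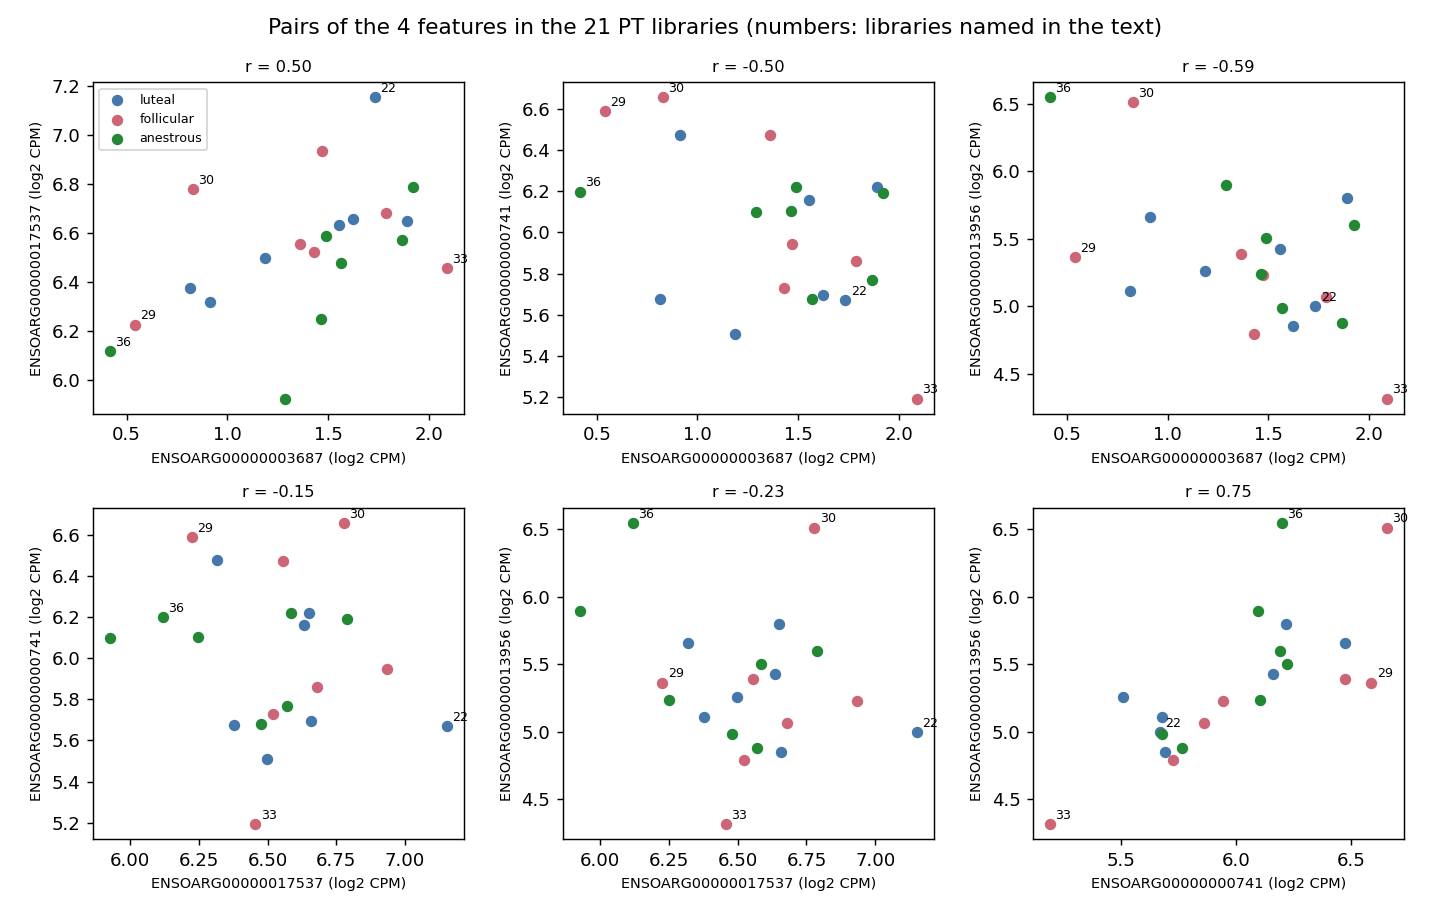
Log2 CPM of each pair of the 4 features (axes) in the 21 PT libraries, coloured by phase (luteal blue, follicular red, anestrous green), with libraries 22, 29, 30, 33 and 36 numbered. The low pair, ENSOARG00000000741 and ENSOARG00000013956, follows 1 rising band (r = 0.749), while libraries 36 and 29 lie at the low end of ENSOARG00000003687.

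Over the 21 PT libraries ENSOARG00000013956 was higher where the 10 largest features took more of the counts (r = 0.522, permutation adjusted over 8 relations p = 0.0822; rho = 0.642, adjusted p = 0.0187; r = 0.680 without libraries 24 and 25). The r of ENSOARG00000003687 with the total count was 0.502 (permutation adjusted p = 0.0822), and it fell to 0.208 without libraries 36 and 24. The other 6 relations with makeup or depth had permutation adjusted p from 0.224 to 0.779. Taken as residuals from the share of the 10 largest features, the pairs of ENSOARG00000003687 had somewhat smaller r of 0.429, -0.432 and -0.512 and no longer passed (permutation adjusted p = 0.0784, 0.0784 and 0.0526), and 1 pair, ENSOARG00000000741 with ENSOARG00000013956, did. In the HT the same share had r = -0.621 with ENSOARG00000003687, -0.493 with ENSOARG00000017537, 0.609 with ENSOARG00000000741 and 0.288 with ENSOARG00000013956 over 21 libraries, and -0.573, -0.338, 0.480 and 0.157 without library 15. The share averaged 28.1 ± 5.02% in the follicular and 34.8 ± 5.58% in anestrous libraries 16 to 21 (SD, n = 7 and 6). Its part in the HT differences was not tested.

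The features most like each of the 4 over the 21 HT libraries, by Pearson's r of log2 CPM among 16348 others, were other features than their likest in the PT. For ENSOARG00000003687 it was ENSOARG00000005844 (r = 0.911), which had r = 0.200 with it over the 21 PT libraries. For ENSOARG00000017537 it was ENSOARG00000020157 (r = 0.946), with r = 0.751 in the PT, rank 29 of the 16348 there. For ENSOARG00000000741 it was ENSOARG00000005695 (r = 0.925, and 0.509 in the PT), and for ENSOARG00000013956 it was ENSOARG00000010069 (r = 0.918, and 0.382 in the PT). ENSOARG00000020157, chosen for this likeness, had 31.5 CPM in library 15, 11.9 ± 3.04 CPM in the follicular libraries and 4.94 ± 1.299 CPM in anestrous libraries 16 to 21. An r over 0.8 in the HT was reached by 246, 104, 335 and 16 features for the 4 in the order of their listing, and without library 15 by 199, 82, 62 and 18. The count for ENSOARG00000000741 moved most. In the PT the counts were 8, 8, 47 and 19.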

How the data were processed

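RNA of 21 HT and 21 PT libraries was sequenced, and the authors deposited 1 table of whole-number read counts per Ensembl gene ID, which was used as deposited. Per the submitters' processing notes, the tools were HISAT2 2.1.0 and StringTie 1.3.5, beside Trimmomatic 0.38, FastQC 0.11.5, SAMtools 1.7, R 3.5.1 and DESeq2, with no role or order stated. The sources used here do not give the genome build, the annotation or the strand setting. Reads of overlapping, antisense or near-identical genes may therefore be shared with the 4 features.

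Groups come from the sample titles. CPM values were computed with edgeR's TMM factors over all 42 libraries (17296 features kept by filterByExpr, minimum count 10), and log2 CPM used a pseudocount of 0.5 counts. The tests were edgeR's quasi-likelihood test (version 4.0.16, R 4.3.3) with Benjamini-Hochberg adjustment over all features tested and a threshold of 0.05: 21 PT libraries for PT phases (16301 features) and 42 for PT against HT. HT phase differences come from the same model over 21 or 20 HT libraries. Correlations used Pearson's r and Spearman's rho of log2 CPM with 100000 permutations, or all 5040 pairings for 7 libraries (Python 3.11.15, SciPy 1.17.1). The scripts were tested on simulated data.

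DESeq2 1.42.0, limma-voom 3.58.1 with sample weights, other scalings, filters and pseudocounts, a covariate for the share of the 10 largest features, and leaving out each library were tried as alternatives. The named features are the 4 and, for each, the feature with the highest r over the 21 HT libraries. The members and lists were chosen with earlier results of these data known. A list of cell type markers could not be used, since no ID matched a gene symbol.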

Additional observations from a re-analysis of the deposited data

Results flagged for a closer look

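Of the 24 groups of 7 values (4 features in 6 groups), 4 held a value whose gap to its nearest neighbour, as a share of the group's range, was above Dixon's 95% critical value for 7 values. Where values were not used for a choice, chance gives this in about 1 in 20 groups. That rate does not hold for the follicular and anestrous HT groups, whose values chose the features. The count of 4 is therefore a description. Library 15 stood apart in the anestrous HT for ENSOARG00000003687, at 9.14 CPM with a gap of 0.868 of the range, and for ENSOARG00000017537, at 165 CPM with a gap of 0.812. Both values are those by which the features were chosen, so they add nothing to the choice. For the features that were low in library 15 the gap was 0.483 of the range for ENSOARG00000000741 and 0.104 for ENSOARG00000013956, under the critical value.

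In the PT, which was not used for the choice, luteal library 22 held 142 CPM of ENSOARG00000017537, with a gap of 0.659 of the range. Follicular library 30 held 91.3 CPM of ENSOARG00000013956, with a gap of 0.692.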

How the results depend on the processing

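Of the alternative values, 1028 kept their direction and their side of the threshold or moved by less than the spread, 19 moved further, 47 reversed, 12 passed and 15 no longer passed. No paired analysis was possible because the labels give no tie between a library and a ewe. HT and PT libraries of a phase may come from the same ewes, and the tests treat them as independent. Both luteal tissue calls held under every alternative run, with adjusted p from 5.44e-05 to 0.0234 for ENSOARG00000003687 and from 1.83e-05 to 0.00247 for ENSOARG00000000741. DESeq2 called 6, 4 and 14 features in the PT comparisons (follicular against anestrous, luteal against anestrous, luteal against follicular) and limma-voom 1 in the first, where edgeR called 0, also without each library. The PT fold changes that reversed were ones whose 95% intervals include 0. Follicular minus anestrous ENSOARG00000013956 was 0.0544 with the covariate for the 10 largest features. Luteal minus follicular ENSOARG00000003687 was 0.00326 with DESeq2, 0.0835 with limma-voom, 0.00415 with RLE factors, 0.000728 with a filter of 1 CPM, 0.122 with the covariate and 0.0299 in the permutation test, and ENSOARG00000013956 was 0.0525 with limma-voom and 0.0629 in the permutation test. Leaving out each library in turn gave -0.215 to 0.0393 (ENSOARG00000003687) and -0.0154 to 0.200 (ENSOARG00000000741) for follicular minus anestrous, and -0.182 to 0.0146 (ENSOARG00000003687) for luteal minus anestrous. For luteal minus follicular it gave -0.102 to 0.152 (ENSOARG00000003687), -0.0853 to 0.0877 (ENSOARG00000017537) and -0.165 to 0.260 (ENSOARG00000013956). Leaving out a further HT library beside library 15 gave 1.55 to 1.71 for the HT follicular minus anestrous value of ENSOARG00000003687.

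Of the 4 PT pairs that passed, 1 to 4 were left without each library, 2 with plain library totals and 1 as residuals from the share of the 10 largest features (adjusted p 0.0784, 0.0784 and 0.0526 for the pairs of ENSOARG00000003687). Plain totals and residuals were chosen after seeing the data. With plain totals r of ENSOARG00000017537 with ENSOARG00000000741 in the PT was 0.119. The low pair passed under every alternative run. In the luteal HT, 0 to 1 pairs passed without each library, 1 with RLE factors and 3 with plain totals. There r turned to 0.371 (ENSOARG00000003687 with ENSOARG00000000741), 0.623 (ENSOARG00000003687 with ENSOARG00000013956) and 0.757 (ENSOARG00000017537 with ENSOARG00000000741) with plain totals. As residuals it was -0.0656 (ENSOARG00000003687 with ENSOARG00000017537) and 0.0878 (ENSOARG00000017537 with ENSOARG00000000741). Without each luteal HT library r ran from -0.474 to 0.253 (ENSOARG00000003687 with ENSOARG00000013956), from -0.570 to 0.407 (ENSOARG00000003687 with ENSOARG00000017537), from -0.218 to 0.445 (ENSOARG00000017537 with ENSOARG00000000741) and from -0.0161 to 0.556 (the low pair). Of the relations with makeup, 0 to 2 passed without each PT library and 3 with plain totals, where ENSOARG00000000741 had r = -0.210 with the share and 0.186 with the total count. Without each library, r with the total count ran from -0.120 to 0.250 for ENSOARG00000017537 and from -0.317 to 0.0524 for ENSOARG00000013956. With plain totals the follicular and anestrous HT ranges were apart in 1146 features, with library 15 on the follicular side in 1128. The cause of these changes was not tested. Counts as low as 17 (PT library 36) limit the precision of ENSOARG00000003687.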
